A study of Homo sapiens with 6 samples.

Results

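The genes described here are 41 genes of the lysosome: 16 genes for the proton pump and its accessory proteins, 8 cathepsins, 8 other hydrolases, 2 lumenal cofactors, 4 membrane proteins and the 3 transcription factors TFEB, TFE3 and MITF. They were taken as a list of symbols and are 41 of the 35359 genes to which the deposited transcripts could be joined. All 41 were found, and 40 passed the filter on low counts and were tested. CTSL, the protease cathepsin L, had 0 estimated reads in all 6 libraries, which allows up to 0.113 CPM in the smallest library on counting error alone.

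The cells are EoL-1, a human line established from an eosinophilic leukaemia, labelled as eosinophils and grown in serum-containing medium. There were 3 libraries of EoL-1 cells in which ATF3 had been knocked out with CRISPR/Cas9 and 3 libraries of wild-type EoL-1 cells, with no other treatment or time given, and polyadenylated RNA was sequenced from each. The series design text calls the ATF3 derivative a knockdown, and the sample labels, which are followed here, give its genotype as a knockout. Neither the position of the edit nor the number of clones is stated, and nothing says that the replicates came from different cultures. The p-values then cover the spread between these libraries alone, which may be technical. The comparison asks how lysosomal transcripts differ in cells edited at ATF3, a bZIP transcription factor that stress induces.

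The lysosome is kept acidic by the V-ATPase, a rotary pump whose cytosolic V1 sector hydrolyses ATP and whose membrane V0 sector carries protons into the lumen, where acid hydrolases such as the cathepsins and glycosidases work. TFEB, TFE3 and MITF are related helix-loop-helix leucine zipper factors that are held in the cytoplasm when nutrients are plentiful and that bind E-box sequences at many lysosomal promoters when they enter the nucleus. In myeloid cells the same hydrolases serve the digestion of engulfed material, and the granules of eosinophils are related to lysosomes.

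Promoter sequences were examined because an E-box is the textbook site of the 3 transcription factors. RefSeq promoter entries of GRCh38.p14, from 250 bases before to 50 bases after the gene start, were matched by symbol for 31 of the 41 genes. The E-box CACGTG, which reads the same on both strands, occurred in 9 of the 31 (29%), against 7.43% of 27305 promoters in the table and 10.1% of the 9979 promoters of tested genes. Its longer palindrome TCACGTGA, which contains the E-box and is the core of the element known as CLEAR, occurred in 6 of the 31 (19.4%), against 1.04% of all promoters and 1.97% of those of tested genes. The 6 promoter stretches with the longer palindrome are shown because they hold the textbook sequence of this regulation, with the E-box or the palindrome in capitals and each read 5′ to 3′ along its gene.
ATP6V0D1, chr16:67481191-67481236, minus strand: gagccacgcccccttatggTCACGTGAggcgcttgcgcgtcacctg
CTSA, chr20:45891273-45891334, plus strand: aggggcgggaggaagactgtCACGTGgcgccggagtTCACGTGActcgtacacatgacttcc
LAMP1, chr13:113297027-113297236, plus strand: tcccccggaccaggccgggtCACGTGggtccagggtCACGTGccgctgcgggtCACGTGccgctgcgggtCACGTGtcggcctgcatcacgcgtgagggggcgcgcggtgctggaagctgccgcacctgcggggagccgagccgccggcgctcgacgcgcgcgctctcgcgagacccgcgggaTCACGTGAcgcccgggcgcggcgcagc
MCOLN1, chr19:7522563-7522623, plus strand: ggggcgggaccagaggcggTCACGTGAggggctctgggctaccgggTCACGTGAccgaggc
GAA, chr17:80101485-80101575, plus strand: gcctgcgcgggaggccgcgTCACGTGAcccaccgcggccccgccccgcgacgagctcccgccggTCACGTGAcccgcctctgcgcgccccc
ATP6V1G1, chr9:114587691-114587736, plus strand: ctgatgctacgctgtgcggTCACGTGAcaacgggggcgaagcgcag

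The stretches of CTSA and LAMP1 also hold E-boxes outside the palindrome, and GAA and MCOLN1 hold the palindrome at 2 places each. LAMP1 has a further copy that spans the gene start and is not printed. The 3 other genes with an E-box were ATP6V0B, with 2, and CTSD and NEU1, with 1 each. The cyclic AMP response element TGACGTCA, the textbook site of ATF and CREB dimers and also a palindrome, was in 0 of the 31 promoters. It was in 1.98% of all promoters and 3.2% of those of tested genes. With shares this low, 0 of 31 does not set these promoters apart. A match describes the letters in this window alone and does not show that a factor binds there. The RefSeq start is not always the start of the gene in the GENCODE annotation, on which reads were counted. The stretches of CTSA and ATP6V0D1 lie inside the GENCODE spans of these genes, as do the E-boxes of ATP6V0B and CTSD. The stretch of GAA crosses the GENCODE start.

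**Figure D1:**
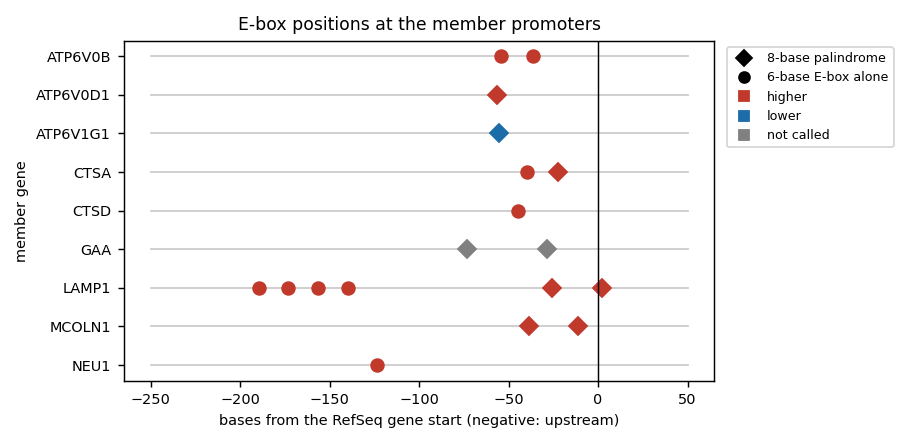
Positions of E-boxes in the 9 promoters that hold one, as bases from the RefSeq gene start on the x axis, with a row for each gene, diamonds for the 8-base palindrome and circles for the 6-base E-box alone. Red marks genes that rose in knockout, blue the gene that fell and grey the gene that did not pass the test, and all matches lie between 192 bases before the start and 5 bases after it.

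The libraries held 26766103 to 30117281 estimated reads. ATF3 averaged 5.98 ± 1.91 CPM in knockout and 20.1 ± 3.77 CPM in wild type (SD, n = 3 each) without overlap. Its log2 fold change was -1.75 (SE 0.25, edgeR adjusted p = 0.00927). It was -1.67 when wild-type replicate 1 was left out (adjusted p = 0.0511). On the leading component of log2 CPM, which held 44.9% of the variance, the knockout libraries lay between -34.8 and -20.9. Wild-type replicate 2, at 11.9, was closer to them than the other wild-type libraries, at 37 and 36.3. Most markers that define eosinophils were at or near 0: PRG3, CLC, IL5RA and GATA1 had 0 reads in every library and EPX, CCR3 and SIGLEC8 reached at most 0.239 CPM. Of 14 eosinophil markers 5 were tested, and RNASE2, RNASE3 and ADGRE1 rose. RNASE2 averaged 128 ± 32.4 CPM in knockout and 35.2 ± 5.93 CPM in wild type (SD, n = 3 each). The log2 fold changes were 1.86 for RNASE2 and 1.65 for RNASE3. Both were called in all 6 fits that left out a library, and ADGRE1 in 4. Of 16 monocyte and macrophage markers, 8 were tested and 2 rose, LYZ and CSF1R. The summed level of all 16 was 778 to 1393 CPM in knockout libraries and 260 to 696 CPM in wild-type libraries, highest of the wild-type libraries in replicate 2. Into this sum LYZ brought 559 ± 200 CPM in knockout and 125 ± 109 CPM in wild type (SD, n = 3 each). VCAN brought 276 ± 173 and 100 ± 120 CPM, with groups that overlapped, and did not pass (edgeR adjusted p = 0.29). FCGR1A had a log2 fold change of -0.15. LYZ was called in 2 of the 6 fits that left out a library, and CSF1R in 1. CD14 reached at most 0.353 CPM and FCGR3A and MARCO were at 0 throughout. Of 7 neutrophil precursor markers, 5 were tested and 2 rose, MPO and MS4A3. MS4A3, with a log2 fold change of 2.25, was called in all 6 fits that left out a library, and MPO in 4. The summed level of all 7 markers was 531 to 1206 CPM in knockout libraries and 298 to 425 CPM in wild-type libraries. Into the highest sum, that of knockout replicate 3, PRTN3 brought 736 CPM, and this gene did not pass (edgeR adjusted p = 0.0774). Of the 5 tested, 4 had positive log2 fold changes and CTSG a negative one. CTSG averaged 4.65 ± 1.53 CPM in knockout and 10.7 ± 5.13 CPM in wild type (SD, n = 3 each). Its groups overlapped, and it did not pass (edgeR adjusted p = 0.065). Coordinates below are those of GRCh38.

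Lysosomal transcripts were mostly higher in the ATF3 knockout libraries, by modest amounts. Of the 40 tested genes, 17 rose (adjusted p under 0.05 in edgeR's quasi-likelihood test over all 13274 tested genes), ATP6V1G1 alone fell and 22 did not pass. Over all tested genes, 11.7% rose and 9.95% fell, and the counts by role below are to be read beside these shares. The median log2 fold change of the 40 genes was 0.27, against 0.01 over all tested genes, and 36 of the 40 values were above 0, with a range of -0.49 to 0.92. Every knockout library lay above every wild-type library in 23 of the 40, and below in 3, against 22.4% and 21.5% of all tested genes.

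The number of lysosomal genes called was smaller in several fits that left out a library. Without wild-type replicate 1, 3 lysosomal genes rose and 0 fell by edgeR, with 17 higher and 2 lower at an unadjusted p under 0.05. All tested genes then gave 173 higher and 115 lower. Without wild-type replicate 3 the count was 3 higher and 1 lower, without knockout replicate 1 it was 9 and 1, and without wild-type replicate 2 it was 17 and 1. With an offset for the effective transcript length, which follows how the reads of a gene are split over its transcripts, it was 8 higher and 2 lower. ATP6V0A1, NEU1 and NPC1 were called in each of the 6 fits that left out 1 library, and no called gene changed sign in any fit that was run. The smallest adjusted p of any gene was 0.0489 without wild-type replicate 1 and 0.0441 without wild-type replicate 3. Calls kept in those 2 fits thus lay just under the threshold, and ATP6V0A1 and NEU1 had adjusted p values of up to 0.0499 over the alternatives.

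Wild-type replicate 2 was the highest wild-type library for 16 of the 17 genes that rose and for 30 of the 40 tested, against 36.6% of all tested genes. The summed level of the monocyte markers was also highest of the wild-type libraries in this replicate, although FCGR1A and ADGRE5 were lowest there and MSR1 was highest in wild-type replicate 3. This was not particular to monocyte markers. The eosinophil sum was 36.95, 51.5 and 47.8 CPM in wild-type replicates 1, 2 and 3, and the neutrophil precursor sum 297.5, 425 and 410 CPM. Sums of lymphocyte and of mast cell and basophil markers were also highest in replicate 2. Those of mature neutrophil markers and of stroma and endothelium markers were not. The part of these markers in the lysosomal differences was not tested. In bulk RNA, fewer cells of a type and less RNA per cell cannot be told apart. An exact two-sided permutation test of 3 against 3 libraries cannot give a p below 0.1, and each gene whose groups did not overlap had this value.

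**Figure D2:**
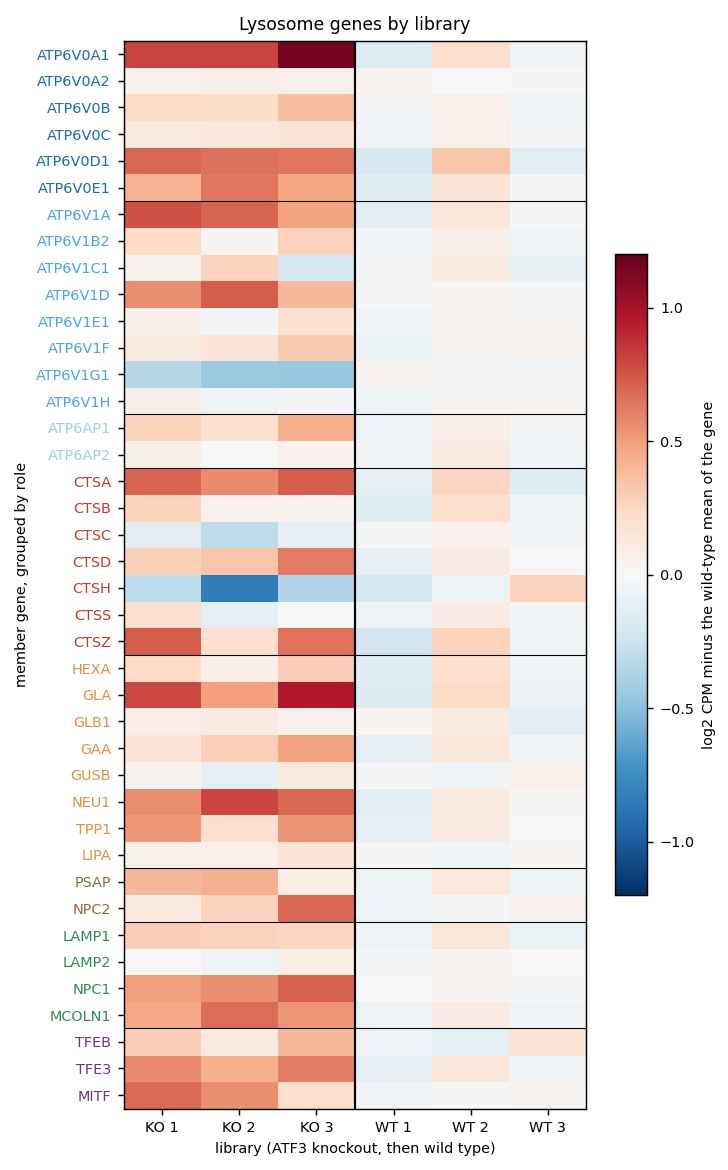
Heat map of the 40 tested lysosomal genes, a row for each gene and a column for each library, knockout libraries on the left and wild-type libraries on the right, coloured by log2 CPM minus the gene's wild-type mean and grouped by role. Most rows are red in all 3 knockout libraries, ATP6V1G1 is blue there, and wild-type replicate 2 is the reddest wild-type column in most rows that rose.

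**Figure D3:**
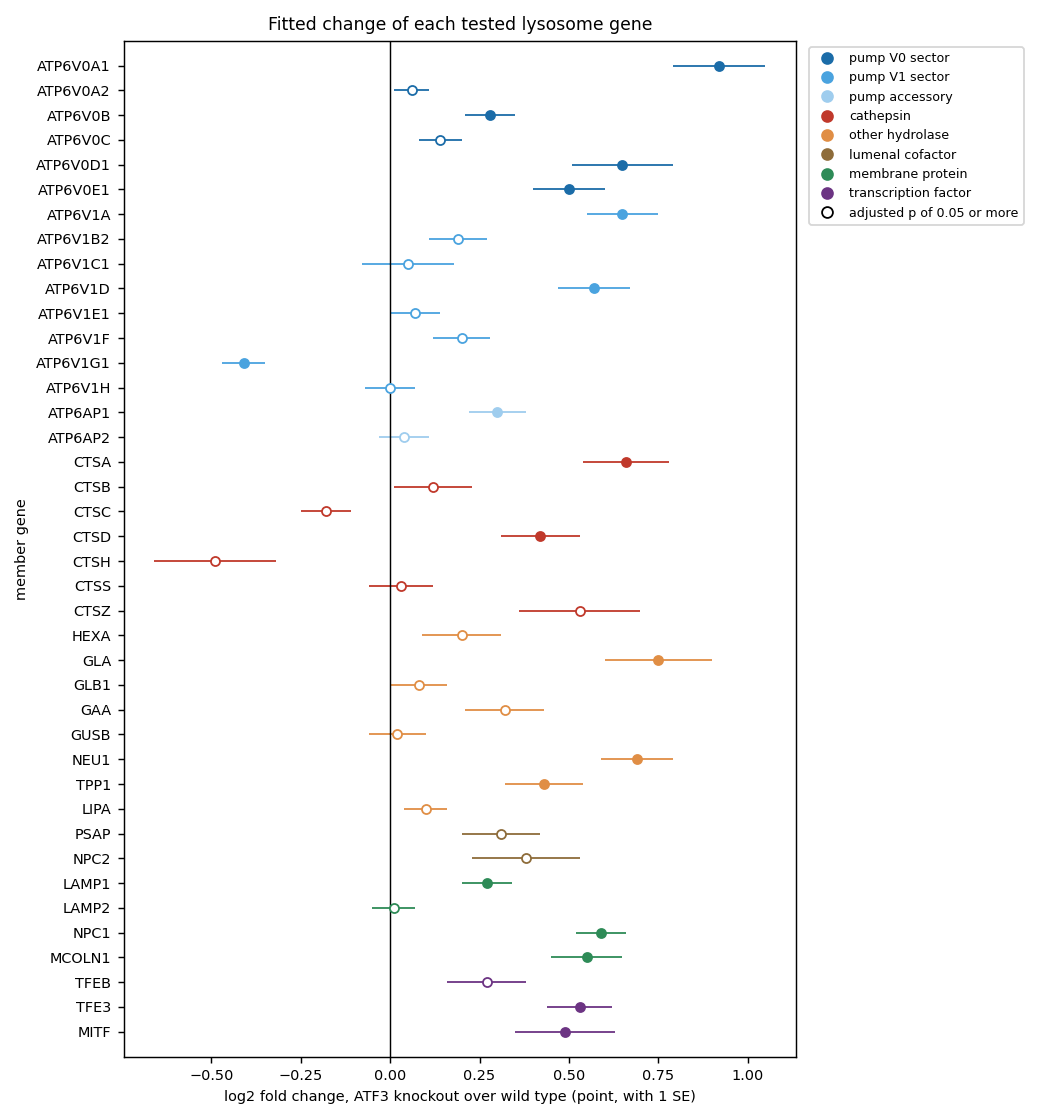
Fitted log2 fold change of each tested lysosomal gene, knockout over wild type, on the x axis with bars of 1 SE, coloured by role. Filled points passed an adjusted p of 0.05, and they run from -0.41 for ATP6V1G1 to 0.92 for ATP6V0A1.

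Within the membrane sector of the pump, 4 of 6 genes rose and 2 did not pass. ATP6V0A1, an a subunit that lines the path of the protons, lies on chromosome 17, 42458844 to 42522611 on the plus strand. It had 66.0, 66.1 and 83.4 CPM in knockout replicates 1, 2 and 3, against 33.8, 43.1 and 36.6 CPM in wild-type replicates 1, 2 and 3, an order kept for the libraries of each group below. Every knockout library was above every wild-type library, with the highest level in knockout replicate 3, and the means were 71.8 ± 10.0 CPM in knockout and 37.9 ± 4.78 CPM in wild type (SD, n = 3 each). Its log2 fold change, the largest of the 40 tested genes, was 0.92 (SE 0.13, edgeR adjusted p = 0.0091), 1.90-fold the level of wild type. Among the V0 genes described here the other a subunit gene, ATP6V0A2, averaged 75.2 ± 0.457 CPM in knockout and 72.0 ± 1.24 CPM in wild type (SD, n = 3 each). In the fit its log2 fold change was 0.06 (SE 0.05, edgeR adjusted p = 0.428).

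ATP6V0E1, a small membrane subunit, lies on chromosome 5, 172983757 to 173035445 on the plus strand. It had 57.5, 66.9 and 59.8 CPM in the knockout libraries, against 39.1, 48.4 and 42.5 CPM in the wild-type libraries. ATP6V0D1, which joins the rotating ring to the central stalk, lies on chromosome 16, 67438014 to 67481237 on the minus strand. It had 83.0, 81.3 and 80.3 CPM in the knockout libraries, against 44.9, 64.7 and 46.7 CPM in the wild-type libraries. The groups did not overlap for either gene, and wild-type replicate 2 was the nearest to the knockout libraries in both. The log2 fold changes were 0.50 (SE 0.10, edgeR adjusted p = 0.0178) for ATP6V0E1 and 0.65 (SE 0.14, edgeR adjusted p = 0.0211) for ATP6V0D1. ATP6V0B, a proteolipid of the proton-carrying ring, lies on chromosome 1, 43974487 to 43978295 on the plus strand. It had 93.7, 93.0 and 104 CPM in the knockout libraries, against 79.1, 83.4 and 77.2 CPM in the wild-type libraries, and rose by a smaller log2 amount, 0.28 (SE 0.07, edgeR adjusted p = 0.032). ATP6V0C, the main proteolipid of that ring and the V0 gene with the most reads, had 111, 113 and 114 CPM in the knockout libraries, against 99.3, 107 and 101 CPM in the wild-type libraries. Its groups did not overlap, but the log2 fold change of 0.14 (SE 0.06, edgeR adjusted p = 0.122) did not pass. ATP6V0A1 alone of the V0 genes kept its call when wild-type replicate 1 or 3 was left out. ATP6V0D1 also lost it without knockout replicate 1 (adjusted p of 0.0623) or 2 (0.0545). ATP6V0B lost it in 5 of the 6 such fits, at adjusted p of 0.0504 to 0.129, and kept it without wild-type replicate 2.

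The cytosolic V1 sector moved in both directions. Of 8 genes 2 rose, 1 fell and 5 did not pass. ATP6V1A, the catalytic subunit that hydrolyses ATP, lies on chromosome 3, 113747019 to 113812056 on the plus strand. It had 113, 108 and 93.2 CPM in the knockout libraries, against 60.6, 73.5 and 66.1 CPM in the wild-type libraries. This gave a log2 fold change of 0.65 (SE 0.10, edgeR adjusted p = 0.0105). ATP6V1D, part of the central rotor, lies on chromosome 14, 67294371 to 67360265 on the minus strand. It had 22.8, 25.6 and 20.2 CPM in the knockout libraries, against 15.3, 15.8 and 15.2 CPM in the wild-type libraries. The fitted log2 fold change was 0.57 (SE 0.10, edgeR adjusted p = 0.0139). Both genes were separated between the groups. ATP6V1D shares 269 exon bases with EIF2S1 on the opposite strand, which had 21421 reads over all libraries against 3270 of ATP6V1D and a log2 fold change of -0.27 (edgeR adjusted p = 0.0189), in the other direction. Calls of ATP6V1A and ATP6V1D ended without wild-type replicate 1 (adjusted p of 0.0564 and 0.0693) and without wild-type replicate 3 (0.0511 and 0.0639). They also ended with the effective length offset (0.0761 and 0.077).

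ATP6V1G1, a subunit of the peripheral stalk that holds the sectors together (chromosome 9, 114587746 to 114598373 on the plus strand), was the only one of the 40 genes that fell. It had 92.3, 85.8 and 85.2 CPM in the knockout libraries, against 119, 115 and 116 CPM in the wild-type libraries. The 3 wild-type libraries lay within 4 CPM of each other and above all knockout libraries, and the means were 87.8 ± 3.94 CPM in knockout and 117 ± 2.14 CPM in wild type (SD, n = 3 each). Its log2 fold change was -0.41 (SE 0.06, edgeR adjusted p = 0.00936), a level 1.33-fold higher in wild type, and it was -0.40 without wild-type replicate 1 (adjusted p = 0.0564). Its promoter holds the palindrome shown above, as do the promoters of ATP6V0D1, CTSA, LAMP1 and MCOLN1, which rose. ATP6V1B2, the B subunit that shares the nucleotide sites with ATP6V1A and the pump gene with the most reads, had 381, 330.5 and 391 CPM in the knockout libraries, against 315, 342 and 313 CPM in the wild-type libraries, which overlap, and a log2 fold change of 0.19 (SE 0.08, edgeR adjusted p = 0.142). The rotor gene ATP6V1F, the stalk genes ATP6V1C1 and ATP6V1E1 and the regulatory gene ATP6V1H had log2 fold changes between -0.00 and 0.20, and none passed.

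Of the accessory proteins, ATP6AP1, which is needed for assembly of the pump (chromosome X, 154428632 to 154436516 on the plus strand), had 85.5, 81.5 and 95.2 CPM in the knockout libraries, against 68.1, 75.1 and 69.9 CPM in the wild-type libraries. The groups did not overlap and the log2 fold change was 0.30 (SE 0.08, edgeR adjusted p = 0.0385), which did not pass without either of wild-type replicates 1 and 3 (adjusted p of 0.15 and 0.135) nor without knockout replicate 1 (0.0829) or 3 (0.0643). ATP6AP2, also known as the prorenin receptor, averaged 76.2 ± 1.97 CPM in knockout and 74.2 ± 4.69 CPM in wild type (SD, n = 3 each). In the fit its log2 fold change was 0.04 (SE 0.07, edgeR adjusted p = 0.727). Over the pump as a whole, 7 of 16 genes rose, 1 fell and the median log2 fold change was 0.19.

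**Figure D4:**
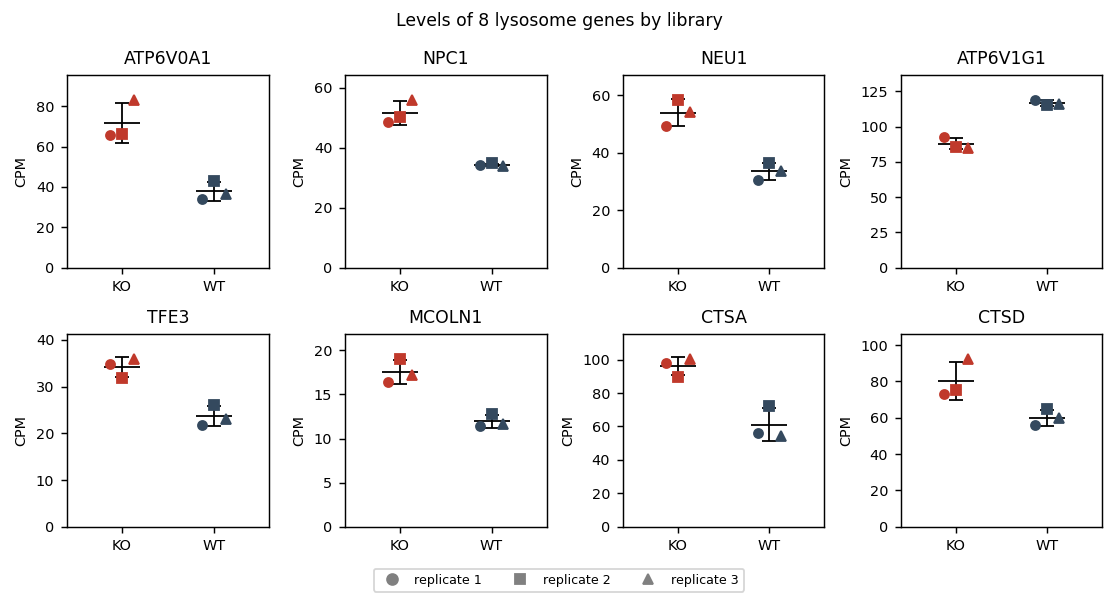
TMM-scaled CPM of 8 lysosomal genes, with knockout libraries on the left (red) and wild-type libraries on the right (dark), a symbol for each replicate number and bars for the mean and 1 SD of 3 libraries. ATP6V1G1 is lower in all knockout libraries, and the other 7 genes are higher in all of them.

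Cathepsins were mixed. Of 7 tested, 2 rose and 5 did not pass, and the values of CTSC and CTSH were lower in knockout. CTSA, a carboxypeptidase that also protects the sialidase NEU1, lies on chromosome 20, 45890144 to 45898820 on the plus strand. It had 98.2, 89.8 and 100.3 CPM in the knockout libraries, against 56.1, 72.3 and 54.5 CPM in the wild-type libraries. CTSD, the main aspartic protease of the lysosome, lies on chromosome 11, 1752752 to 1764573 on the minus strand. It had 73.3, 75.5 and 92.3 CPM in the knockout libraries, against 55.9, 64.6 and 59.6 CPM in the wild-type libraries. Each was higher in all knockout libraries, and wild-type replicate 2 was the highest wild-type library for both. The log2 fold changes were 0.66 (SE 0.12, edgeR adjusted p = 0.0137) for CTSA and 0.42 (SE 0.11, edgeR adjusted p = 0.0335) for CTSD. Both calls ended when wild-type replicate 1 was left out (adjusted p of 0.0685 and 0.132) and when replicate 3 was (0.0581 and 0.114). CTSD also missed the threshold without knockout replicate 1 (0.0503) or 2 (0.0558). CTSA shares 1038 exon bases with NEURL2 and CTSD shares 1304 with a read-through gene, but these had 103 and 300 reads against 13445 of CTSA and 12049 of CTSD.

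CTSC, the dipeptidyl peptidase that activates the serine proteases of myeloid granules and the cathepsin with the most reads, had 214, 189.6 and 215 CPM in the knockout libraries, against 232, 242 and 228 CPM in the wild-type libraries. Every knockout library was lower, yet the log2 fold change of -0.18 (SE 0.07, edgeR adjusted p = 0.104) did not pass. CTSH, an aminopeptidase named after its values were seen, had 70.7, 49.3 and 68.6 CPM in the knockout libraries, against 75.3, 83.5 and 106 CPM in the wild-type libraries. These groups also did not overlap, with a log2 fold change of -0.49 (SE 0.17, edgeR adjusted p = 0.0858), and DESeq2 called it lower (adjusted p = 0.0251). Protein-coding transcripts held 0.413 ± 0.322% of the CTSH reads in knockout and 1.44 ± 0.31% in wild type (SD, n = 3 each), the rest being on transcripts annotated as degraded, processed or intron-retaining. CTSZ, a carboxypeptidase also named after its values were seen, averaged 154 ± 28.8 CPM in knockout and 107 ± 19.4 CPM in wild type (SD, n = 3 each). Knockout replicate 2 (122 CPM) lay below wild-type replicate 2 (128 CPM), and the log2 fold change of 0.53 (SE 0.17, edgeR adjusted p = 0.0693) passed when either of these libraries was left out (adjusted p = 0.0399 and 0.0433). CTSB and CTSS, cysteine proteases of the endolysosome, had log2 fold changes of 0.12 (SE 0.11) and 0.03 (SE 0.09), and neither passed.

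Of the 8 other hydrolases 3 rose, and the rest had positive log2 fold changes of 0.02 to 0.32 that did not pass. NEU1, the lysosomal sialidase, lies on chromosome 6, 31857659 to 31862906 on the minus strand. It had 49.2, 58.5 and 54.1 CPM in the knockout libraries, against 30.6, 36.4 and 33.7 CPM in the wild-type libraries. All knockout libraries were above all wild-type libraries, with means of 53.9 ± 4.63 CPM in knockout and 33.5 ± 2.92 CPM in wild type (SD, n = 3 each) and a log2 fold change of 0.69 (SE 0.10, edgeR adjusted p = 0.00909). NEU1 could be counted only through transcripts of alternative-haplotype copies of the gene, chiefly ENST00000411774.3, with 987, 1296 and 1382 estimated reads in the knockout libraries, against 657, 909.9 and 687 in the wild-type libraries. GLA, alpha-galactosidase A, lies on chromosome X, 101397803 to 101408012 on the minus strand. It had 56.0, 45.4 and 63.0 CPM in the knockout libraries, against 28.9, 38.0 and 30.6 CPM in the wild-type libraries. This gave a log2 fold change of 0.75 (SE 0.15, edgeR adjusted p = 0.0177). TPP1, a tripeptidyl peptidase, lies on chromosome 11, 6612763 to 6619485 on the minus strand. It had 190.5, 153 and 193 CPM in the knockout libraries, against 122, 144 and 134 CPM in the wild-type libraries. The fitted log2 fold change was 0.43 (SE 0.11, edgeR adjusted p = 0.0341). Between the groups, the closest libraries for TPP1 were knockout replicate 2 and wild-type replicate 2. GLA and TPP1 did not pass without wild-type replicate 1 (adjusted p of 0.0805 and 0.134) or 3 (0.0742 and 0.112), nor without the first knockout library (0.0537 and 0.0988). TPP1 missed it without knockout replicate 3 as well (0.0698).

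NEU1, CTSA and GLB1, which encodes beta-galactosidase, act as a complex in the lysosome, and their transcripts did not move alike. NEU1 and CTSA rose, while GLB1 had 55.2, 55.5 and 53.7 CPM in the knockout libraries, against 52.4, 55.6 and 47.5 CPM in the wild-type libraries, which overlap, with a log2 fold change of 0.08 (SE 0.08, edgeR adjusted p = 0.48). Per length, GLB1 was lower in every knockout library, at 42.9 ± 1.12 TPM in knockout and 54.5 ± 3.88 TPM in wild type (SD, n = 3 each), and with the effective length offset its log2 fold change was -0.40 (adjusted p = 0.0345). The full-length coding transcript ENST00000307363.10 held 76.8 ± 4.83% in knockout and 61.9 ± 5.67% in wild type (SD, n = 3 each) of the GLB1 reads, and the reads on it were higher in knockout, with 1131, 1284 and 1166 estimated reads in the knockout libraries, against 1025, 950.5 and 792 in the wild-type libraries. The sign for GLB1 thus differs between reads per gene and TPM. GAA, the acid glucosidase that degrades glycogen and whose promoter holds the palindrome at 2 places, averaged 58.5 ± 6.60 CPM in knockout and 47.0 ± 4.42 CPM in wild type (SD, n = 3 each) without overlap, with a log2 fold change of 0.32 (SE 0.11, edgeR adjusted p = 0.0751). HEXA, GUSB and LIPA, which degrade gangliosides, glucuronides and lipid esters, had log2 fold changes of 0.20 (SE 0.11), 0.02 (SE 0.08) and 0.10 (SE 0.06).

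Neither lumenal cofactor passed. PSAP, the precursor of the saposins that present lipids to hydrolases, had 180.0, 184 and 146 CPM in the knockout libraries, against 131, 149.5 and 131 CPM in the wild-type libraries. Knockout replicate 3 lay below wild-type replicate 2, and the log2 fold change of 0.31 (SE 0.11, edgeR adjusted p = 0.0781) passed without knockout replicate 3 (adjusted p = 0.0227). NPC2, which carries cholesterol to NPC1, averaged 33.1 ± 7.03 CPM in knockout and 25.3 ± 0.858 CPM in wild type (SD, n = 3 each) without overlap, with a log2 fold change of 0.38 (SE 0.15, edgeR adjusted p = 0.102) and the highest level in knockout replicate 3.

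Of the membrane proteins 3 of 4 rose. NPC1, the exporter of cholesterol from the lysosome, lies on chromosome 18, 23506184 to 23586898 on the minus strand. It had 48.4, 50.3 and 56.0 CPM in the knockout libraries, against 34.1, 34.8 and 33.9 CPM in the wild-type libraries. The wild-type libraries lay within 1 CPM of each other and below all knockout libraries, with means of 51.6 ± 3.95 CPM in knockout and 34.2 ± 0.467 CPM in wild type (SD, n = 3 each) and a log2 fold change of 0.59 (SE 0.07, edgeR adjusted p = 0.00818). With the effective length offset the log2 fold change was 0.39 (adjusted p = 0.0593). NPC1 shares 604 exon bases with RMC1 on the opposite strand, which had 3864 reads over all libraries against 7356 of NPC1 and was itself called higher (log2 fold change 0.40, edgeR adjusted p = 0.0204). The strand setting of the quantification is not given in the sources used here.

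MCOLN1, the calcium channel through which the lysosome signals to TFEB, lies on chromosome 19, 7522626 to 7534009 on the plus strand. It had 16.4, 19.0 and 17.2 CPM in the knockout libraries, against 11.5, 12.8 and 11.6 CPM in the wild-type libraries. LAMP1, an abundant glycoprotein of the lysosomal membrane, lies on chromosome 13, 113297241 to 113323672 on the plus strand. It had 140.5, 138 and 137 CPM in the knockout libraries, against 109, 126 and 108 CPM in the wild-type libraries. Both were higher in every knockout library, by 0.55 (SE 0.10, edgeR adjusted p = 0.0134) for MCOLN1 and 0.27 (SE 0.07, edgeR adjusted p = 0.043) for LAMP1 on the log2 scale. Neither passed when wild-type replicate 1 or 3 was left out (adjusted p of 0.0701 and 0.0642 for MCOLN1, 0.166 and 0.159 for LAMP1). LAMP1 missed the threshold without any 1 of the knockout libraries too, at adjusted p of 0.0649 to 0.11. LAMP2, its relative with a form needed for chaperone-mediated autophagy, averaged 124 ± 6.45 CPM in knockout and 123 ± 2.30 CPM in wild type (SD, n = 3 each). Its log2 fold change was 0.01 (SE 0.06, edgeR adjusted p = 0.917). The LAMP2 reads were mostly on ENST00000371335.4, with 2403, 2294 and 3012 estimated reads in the knockout libraries, against 2595, 2714 and 2733 in the wild-type libraries, which overlap. ENST00000200639.8, a form with another last exon, had overlapping reads but stood at 9.67, 13.9 and 9.71 TPM in the knockout libraries, against 8.01, 8.80 and 7.70 TPM in the wild-type libraries, without overlap.

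Of the transcription factors, TFE3 and MITF rose and TFEB did not pass. TFE3 (chromosome X, 49028726 to 49043486 on the minus strand) had 35.0, 31.8 and 35.9 CPM in the knockout libraries, against 21.8, 26.1 and 23.2 CPM in the wild-type libraries. MITF (chromosome 3, 69739435 to 69968337 on the plus strand) had 13.9, 12.7 and 10.0 CPM in the knockout libraries, against 8.40, 8.73 and 8.85 CPM in the wild-type libraries. In both genes the groups did not overlap, and for MITF knockout replicate 3 was the nearest to the wild-type libraries. The log2 fold changes were 0.53 (SE 0.09, edgeR adjusted p = 0.0128) for TFE3 and 0.49 (SE 0.14, edgeR adjusted p = 0.049) for MITF.

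TFEB (chromosome 6, 41683978 to 41736259 on the minus strand) had 21.0, 18.6 and 22.6 CPM in the knockout libraries, against 16.6, 15.8 and 19.3 CPM in the wild-type libraries. Knockout replicate 2 lay below wild-type replicate 3, so the groups overlapped, and the log2 fold change was 0.27 (SE 0.11, edgeR adjusted p = 0.134). A difference of TFEB from the other factors was not tested. TFE3 did not pass without wild-type replicate 1 (adjusted p = 0.0665) or 3 (0.0601). MITF, close to the threshold, passed in none of those fits nor without wild-type replicate 2 (adjusted p of 0.0927) or either of the first 2 knockout libraries (0.134 and 0.111). With all libraries kept, it also missed the threshold with RLE factors (edgeR adjusted p = 0.0505) and in limma-voom (adjusted p = 0.0597). Of 17 alternative settings, 6 called it.

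Most MITF reads were on ENST00000352241.8, a long form, with 267, 335 and 285 estimated reads in the knockout libraries, against 219, 239.6 and 236 in the wild-type libraries. ENST00000394351.8, which starts at a promoter further along the gene, held 80.8 reads in knockout replicate 1 and 0 in the other knockout libraries, against 17.5, 14.3 and 11.4 in the wild-type libraries, and the long form held 88.9% of MITF reads over all libraries. TFE3 reads were divided between the coding transcript ENST00000315869.8 and ENST00000493583.5, annotated as a target of nonsense-mediated decay, and the share on the decay target averaged 23.3 ± 2.90% in knockout and 22.5 ± 4.79% in wild type (SD, n = 3 each). Activity of these factors is set largely by their place in the cell, which transcript levels do not measure.

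ATP6V1H, the regulatory subunit of the V1 sector, did not pass as a gene while its transcripts were separated between the groups, and was chosen for this after its values were seen. The gene had 40.1, 37.0 and 37.5 CPM in the knockout libraries, against 36.8, 38.9 and 39.1 CPM in the wild-type libraries, which overlap. ENST00000524164.5, annotated as a target of nonsense-mediated decay, had 531, 495 and 589.8 estimated reads in the knockout libraries, against 395, 422 and 394 in the wild-type libraries. ENST00000396774.6, which codes for the protein, had 241, 207 and 201 estimated reads in the knockout libraries, against 324, 395 and 361 in the wild-type libraries. The first was higher and the second lower in every knockout library, and coding transcripts together held 41.8 ± 6.99% of the reads in knockout and 57.1 ± 3.77% in wild type (SD, n = 3 each). TPP1 was chosen for this in the same way. Its share on coding transcripts was also lower in every knockout library, at 73.9 ± 2.86% in knockout and 83.1 ± 3.27% in wild type (SD, n = 3 each). Reads on its main coding transcript ENST00000533371.6 overlapped, with 3772, 2833 and 3919 estimated reads in the knockout libraries, against 2878, 3161 and 2815 in the wild-type libraries. The coding share was also lower in every knockout library for ATP6V1C1, CTSH and NPC2. It was higher in every knockout library for NPC1, CTSS and MITF, and for most of the other genes the groups overlapped. The division of reads between similar transcripts is an estimate, and these shares were not tested.

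In level per length, the 40 genes ran from 2.42 TPM for MITF to 133 TPM for ATP6V1B2 as a mean of the 6 libraries, and 37 of them were above 12.2 TPM, the median of all tested genes. The exceptions were TFE3, MCOLN1 and MITF. ATP6V1B2 stood at 145 ± 6.94 TPM in knockout and 119.9 ± 9.19 TPM in wild type (SD, n = 3 each). CTSC stood at 127 ± 3.32 TPM in knockout and 138 ± 5.76 TPM in wild type (SD, n = 3 each), and ATP6V1F at 139 ± 6.79 TPM in knockout and 116 ± 4.45 TPM in wild type (SD, n = 3 each). ATP6V1B2 and ATP6V1F did not differ beyond their spread in either group, and CTSC was below both in knockout and above both in wild type. ATP6V1A, the partner of ATP6V1B2 in the catalytic ring, stood at 27.1 ± 6.28 TPM in knockout and 18.4 ± 1.14 TPM in wild type (SD, n = 3 each). Among the cathepsins CTSC was followed by CTSH, CTSB and CTSZ at 108, 101 and 94.9 TPM over the 6 libraries.

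Of the genes with a promoter entry, 15 rose and 15 were tested without rising. An E-box was present in 7 of the 15 that rose (46.7%) and in 2 of the other 15 (13.3%), and the palindrome in 4 (26.7%) and in 2 (13.3%). The genes that rose with an E-box were ATP6V0B, ATP6V0D1, CTSA, CTSD, LAMP1, MCOLN1 and NEU1. ATP6V0A1, GLA, NPC1, TPP1, ATP6V1D, ATP6AP1, TFE3 and MITF rose without one in this window. ATP6V1G1 fell and GAA did not pass, and both hold the palindrome. Over the promoters of all tested genes the shares were 10.1% and 1.97%. Of the 7 with an E-box that rose, NEU1 alone was called in all 6 fits that left out a library. CTSA and MCOLN1 were called in 4, ATP6V0D1 and CTSD in 2, and ATP6V0B and LAMP1 in 1. Among those without one, ATP6V0A1 and NPC1 were called in all 6. GAA was called by DESeq2 (adjusted p = 0.0466). The shares by call rest on the main fit and are a description with no test.

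A wider list of 170 further genes of the lysosome and of autophagy was read in the same fit. Of 157 tested, 36 rose and 11 fell, with a median log2 fold change of 0.17, where 11.7% and 9.95% of all tested genes rose and fell. The counts in each list below are to be read beside the same shares. Leaving out wild-type replicate 1 gave 3 higher and 1 lower, and leaving out wild-type replicate 3 gave 6 and 1. The fit without knockout replicate 1 gave 14 higher, that without knockout replicate 2 gave 19 and 7, and the effective length offset gave 17 and 5. DNASE2, PLA2G15 and ATG9A were among the genes called in all 6 fits that left out a library.

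**Figure D5:**
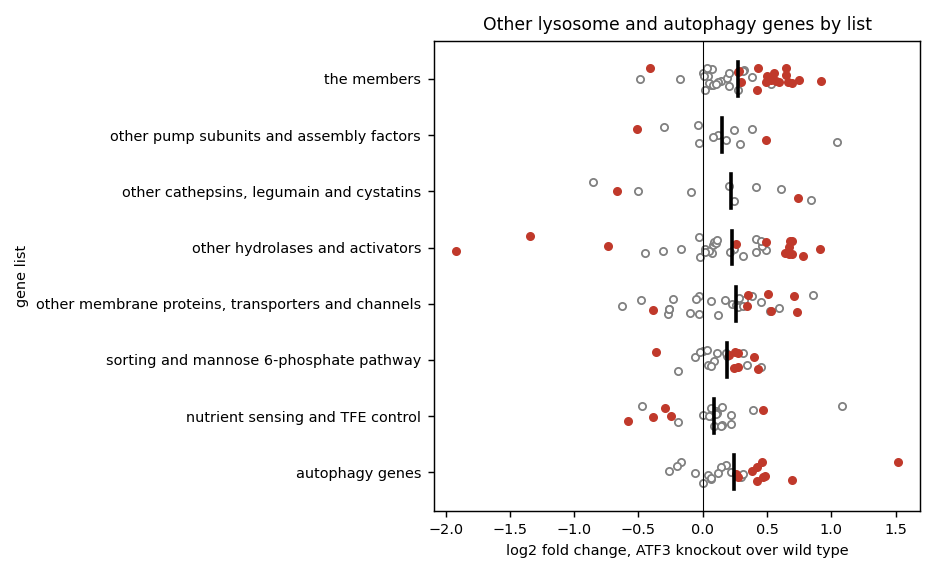
Log2 fold change, knockout over wild type, of each tested gene in 7 lists of other lysosome and autophagy genes and of the 40 genes described above (top row), with filled red points for genes past an adjusted p of 0.05 and black bars at list medians. Medians lie between 0.09 and 0.27, and DNASE2 is the point farthest to the left, at -1.92.

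Of 34 other hydrolases and their activators, 10 rose and 3 fell. DNASE2, the acid nuclease that digests DNA of engulfed cells, lies on chromosome 19, 12875211 to 12881468 on the minus strand. It had 18.7, 12.7 and 20.8 CPM in the knockout libraries, against 70.9, 58.1 and 69.1 CPM in the wild-type libraries. The groups lay far apart, with means of 17.4 ± 4.22 CPM in knockout and 66.0 ± 6.88 CPM in wild type (SD, n = 3 each). Its fitted log2 fold change was -1.92 (SE 0.18, edgeR adjusted p = 0.0078), a level 3.79-fold higher in wild type. PLA2G15, a lysosomal phospholipase, had 22.0, 20.7 and 20.4 CPM in the knockout libraries, against 11.6, 13.7 and 11.5 CPM in the wild-type libraries. Its groups did not overlap, and the log2 fold change was 0.78 (SE 0.10, edgeR adjusted p = 0.00818). FUCA1, a fucosidase, rose by a log2 fold change of 0.91 (SE 0.14, edgeR adjusted p = 0.0105), and did not pass without wild-type replicate 1 (adjusted p = 0.0599).

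AGA, which cleaves the link of sugars to asparagine, had 25.5, 20.7 and 30.3 CPM in the knockout libraries, against 45.5, 37.8 and 44.5 CPM in the wild-type libraries. This gave a log2 fold change of -0.74 (SE 0.15, edgeR adjusted p = 0.0177). ARSG, a sulfatase of low abundance, had 4.11, 2.79 and 4.99 CPM in the knockout libraries, against 11.6, 6.99 and 11.6 CPM in the wild-type libraries. The fitted log2 fold change was -1.34 (SE 0.28, edgeR adjusted p = 0.02). Both were lower in all knockout libraries, and neither passed without wild-type replicate 1 (adjusted p of 0.0805 and 0.0865), wild-type replicate 3 (0.0699 and 0.0774) or knockout replicate 1 (0.0546 and 0.0582). ARSG shares 144 exon bases with SLC16A6 on the opposite strand, which had 1049 reads over all libraries against 1202.5 of ARSG and was also called lower (log2 fold change -1.30, edgeR adjusted p = 0.0351).

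Among 31 other membrane proteins, transporters and channels, 6 rose and 1 fell. CD63, the tetraspanin of late endosomes and granules, had 61.7, 57.6 and 77.9 CPM in the knockout libraries, against 36.8, 39.9 and 42.3 CPM in the wild-type libraries. Its log2 fold change was 0.73 (SE 0.12, edgeR adjusted p = 0.0121). SLC17A5, the sialic acid exporter, had 12.6, 10.7 and 13.1 CPM in the knockout libraries, against 6.75, 7.54 and 8.07 CPM in the wild-type libraries. In the fit its log2 fold change was 0.71 (SE 0.13, edgeR adjusted p = 0.0146). These groups did not overlap. CLN3, a membrane protein lost in juvenile neuronal ceroid lipofuscinosis, rose by 0.35 (SE 0.06, edgeR adjusted p = 0.0143), but shares 567 exon bases with APOBR on the opposite strand, which was also called higher (log2 fold change 0.48, edgeR adjusted p = 0.0303). TMEM192, another protein of the lysosomal membrane, had 58.9, 58.6 and 59.9 CPM in the knockout libraries, against 81.5, 74.6 and 75.7 CPM in the wild-type libraries and fell, with a log2 fold change of -0.39 (SE 0.06, edgeR adjusted p = 0.0108). In the fit without wild-type replicate 1, CD63, SLC17A5, CLN3 and TMEM192 had adjusted p values of 0.0636, 0.0705, 0.0743 and 0.0599. Leaving out wild-type replicate 3 gave 0.0522, 0.0642 and 0.0508 for the last 3, and CD63 kept its call.

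Of 24 autophagy genes 10 rose and 14 did not pass, with a median log2 fold change of 0.24. ATG9A, the scramblase whose vesicles seed the autophagosome, had 70.3, 67.3 and 71.0 CPM in the knockout libraries, against 49.0, 51.9 and 48.7 CPM in the wild-type libraries. GABARAPL1, which is joined to lipid on the autophagosome, had 7.80, 7.38 and 5.72 CPM in the knockout libraries, against 1.89, 3.24 and 2.16 CPM in the wild-type libraries. PLEKHM1, an adaptor for fusion with the lysosome, had 33.2, 30.4 and 33.3 CPM in the knockout libraries, against 21.7, 25.5 and 22.7 CPM in the wild-type libraries. The groups were apart in each, and the log2 fold changes were 0.48 (SE 0.06, edgeR adjusted p = 0.00818), 1.52 (SE 0.25, edgeR adjusted p = 0.0114) and 0.47 (SE 0.09, edgeR adjusted p = 0.0145). GABARAPL1 has a near-identical processed copy, GABARAPL3, so its reads are uncertain to that degree. GABARAPL1 and PLEKHM1 did not pass when wild-type replicate 1 or 3 was left out.

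The list of nutrient sensing and of the control of TFE factors was nearly level in its median, at 0.09, with 1 gene higher and 4 lower of 24. MLST8, a subunit shared by both mTOR complexes, had 71.9, 63.8 and 78.0 CPM in the knockout libraries, against 107, 97.2 and 115 CPM in the wild-type libraries. This gave a log2 fold change of -0.58 (SE 0.10, edgeR adjusted p = 0.012). PPP3CB and PPP3R1, a catalytic and the regulatory subunit of calcineurin, which removes phosphate from TFEB, had 70.8, 62.4 and 64.9 CPM in the knockout libraries, against 81.6, 76.8 and 83.1 CPM in the wild-type libraries for PPP3CB and 90.9, 87.7 and 92.8 CPM in the knockout libraries, against 108, 102 and 112 CPM in the wild-type libraries for PPP3R1. All 3 genes were lower in every knockout library, with log2 fold changes of -0.29 (SE 0.07, edgeR adjusted p = 0.0329) and -0.25 (SE 0.06, edgeR adjusted p = 0.0333) for the calcineurin genes. LAMTOR2, part of the Ragulator scaffold that holds mTORC1 at the lysosome, had 23.4, 23.2 and 24.7 CPM in the knockout libraries, against 15.8, 20.7 and 15.2 CPM in the wild-type libraries and rose by 0.47 (SE 0.13, edgeR adjusted p = 0.0426). None of the 4 passed when wild-type replicate 1 or 3 was left out. LAMTOR2 passed in 1 of the 6 such fits, that without wild-type replicate 2.

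In the sorting and mannose 6-phosphate pathway 7 of 22 genes rose and 1 fell. GGA2 and GGA3, coat adaptors that carry hydrolase receptors from the Golgi, rose by 0.43 (SE 0.08, edgeR adjusted p = 0.0136) and by 0.25 (SE 0.06, edgeR adjusted p = 0.0313) on the log2 scale. HPS5, a factor for lysosome-related organelles, rose by 0.40 (SE 0.10, edgeR adjusted p = 0.0313). CLN6, an endoplasmic reticulum protein that helps enzymes leave for the lysosome, had 65.8, 65.9 and 70.8 CPM in the knockout libraries, against 89.2, 87.9 and 83.5 CPM in the wild-type libraries and a log2 fold change of -0.36 (SE 0.06, edgeR adjusted p = 0.0126), and it shares 1021 exon bases with a read-through gene that was also called lower (log2 fold change -0.45, edgeR adjusted p = 0.0272). None of GGA2, GGA3, HPS5 and CLN6 passed when wild-type replicate 1 was left out, and of these GGA2 alone passed when replicate 3 was.

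Of 10 other cathepsins, legumain and cystatins 1 rose and 1 fell, near the shares of all tested genes (11.7% and 9.95%). CSTB, a cytosolic inhibitor of cathepsins, had 43.7, 50.1 and 48.0 CPM in the knockout libraries, against 25.0, 33.0 and 26.7 CPM in the wild-type libraries. The fitted log2 fold change was 0.74 (SE 0.12, edgeR adjusted p = 0.0105). CST7, which encodes cystatin F, an inhibitor of cathepsin C and other cathepsins, had 56.8, 43.3 and 71.9 CPM in the knockout libraries, against 96.0, 78.0 and 100.3 CPM in the wild-type libraries. Its log2 fold change was -0.67 (SE 0.19, edgeR adjusted p = 0.0436). These inhibitors lay on opposite sides of 0, each without overlap. Of 12 other pump subunits and assembly factors 1 rose and 1 fell, RNASEK, a V-ATPase-associated protein, by 0.49 (SE 0.13, edgeR adjusted p = 0.0424), and ATP6V1E2, an isoform of the E subunit best known in testis, by -0.51 (SE 0.14, edgeR adjusted p = 0.0428). ATP6V1E2 averaged 5.08 ± 0.259 CPM in knockout and 7.25 ± 0.7 CPM in wild type (SD, n = 3 each), and it shares 155 exon bases with RHOQ on the opposite strand, which had 11418 reads over all libraries against 1057 of ATP6V1E2 and was also called lower (log2 fold change -0.50, edgeR adjusted p = 0.0361). CSTB, CST7, RNASEK and ATP6V1E2 did not pass without wild-type replicate 1 or without wild-type replicate 3.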

How the data were processed

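Polyadenylated RNA of 6 EoL-1 libraries (3 ATF3 knockout, 3 wild type) was sequenced with a stranded kit, per the labels. For each library the authors deposited Salmon output with the estimated count of reads, the TPM and the effective length of 177456 transcripts, per the file headers; 92.7% of the counts above 0 were not whole. The submitters' processing notes name Salmon 1.6.0, FastQC 0.11.9 and hg38, with the transcriptome release and the strand setting not given in the sources used here. Effective lengths did not differ between libraries.

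Transcripts were joined to genes by identifier with GENCODE 29 (GRCh38): 167027 matched its primary annotation and 7494 more, mostly haplotype copies, its symbol table, while 2935 had no gene (0.779 to 0.880% of reads) and were left out. Counts were summed per gene and rounded. Genes passing filterByExpr (minimum 10 reads) were tested on the group alone with edgeR 4.0.16 (quasi-likelihood, TMM, Benjamini-Hochberg at 0.05; R 4.3.3; 4 residual degrees of freedom; biological coefficient of variation 15.9%). CPM are TMM-scaled; deposited TPM values were not tested. The steps were tested on simulated data. Alternatives used RLE or upper-quartile factors, other filters, DESeq2 1.42.0, limma-voom 3.58.1, an effective length offset, a replicate block and each library left out; a GC trend, a length trend and primary transcripts alone were added after the data were seen.

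The members and lists were chosen with earlier results of these data known. Values per library are given for the transcription factors, for up to 4 called genes per role and direction with the smallest p, and for the gene with the most reads per role; of the wider list, up to 3 called genes per sub-list and direction are named, except that some genes are not reported here. The precision is limited by counting error and by 3 libraries a group; intervals and floors cover counting error only. Sequences are RefSeq entries of GRCh38.p14.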

Additional observations from a re-analysis of the deposited data

How the results depend on the processing

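Leaving out 1 library at a time gave 173 to 1463 genes higher and 115 to 1477 lower, 3 to 17 lysosomal genes higher and 0 to 1 lower, 1 to 7 pump genes higher and 0 to 1 lower, 0 to 3 cathepsins higher and 0 lower, and 3 to 36 genes of the wider list higher and 1 to 15 lower, with a median log2 fold change of the 40 genes of 0.20 to 0.32. With the effective length offset 749 genes were higher and 688 lower, with 8 lysosomal genes higher and 2 lower, 2 pump genes and 1 cathepsin higher, and 17 wider-list genes higher and 5 lower. DESeq2 called 2 lysosomal genes lower, 1 of them a cathepsin, and 20 higher. With the GC trend removed the counts were 13 higher and 2 lower, with 1 cathepsin higher and 1 lower, and the median was 0.19. Same-numbered libraries did not deviate together (correlations of -0.0689, 0.144 and 0.27) and the numbers do not pair them; with a replicate block 12 lysosomal genes were higher and 1 lower, and 23 wider-list genes higher. Of 21 values that turned sign, all of genes that were not called, GLB1 alone passed, at -0.40 with that offset (adjusted p = 0.0345). The offset gave 0.38 for ATP6V1H, -0.09 for ATP6AP2, -0.02 for CTSS and -0.11 for GUSB. Leaving out a library gave -0.08 to 0.15 for ATP6V1C1, -0.04 to 0.02 for ATP6V1H, -0.06 to 0.10 for CTSS, -0.04 to 0.08 for GUSB and -0.04 to 0.05 for LAMP2. LAMP2 was -0.01 with upper-quartile factors and -0.02 with the length trend removed, where GUSB was 0, and with the GC trend removed ATP6V1H was 0 and GUSB -0.05. Primary transcripts alone gave no value for NEU1, whose reads lie on haplotype copies. PLEKHM1 of the wider list also had a value in only 16 of the 17 alternatives. The cause of these shifts was not tested. Limits: with 3 libraries a group and a spread of 15.9%, small differences may not have been detectable.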
